A study of Mus musculus with 2 samples.

Results

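The circadian clock genes described here are 10 genes chosen by name among the 24346 gene symbols listed in each library: Arntl, Clock, Per1, Per2, Per3, Cry1, Cry2, Nr1d1, Nr1d2 and Dbp. Messenger RNA was sequenced from frozen mouse hearts stored in an RNA preservative, and both libraries carry the label HFD-MI, that is, an infarction (MI) in animals on a high-fat diet (HFD). The labels give 1 library from heart treated with probucol, a cholesterol-lowering antioxidant drug, and 1 from untreated heart, both with the age label day 14. Strain, genotype, sex, the event from which the days were counted, the part of the heart, the number of animals behind a library and the hour of collection are not given in the labels, and the marks HypoE and CM in the column headers are not explained there. With 1 library per group no difference has a replicate check, and every statement describes these libraries. Anything else in which the libraries differ, including the hour at which each heart was taken, cannot be told apart from the treatment.

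The clock of mammalian cells is a feedback loop of transcription. The proteins of Arntl (also called BMAL1) and Clock pair on DNA elements called E-boxes and switch on the Period (Per), Cryptochrome (Cry), Nr1d1, Nr1d2 and Dbp genes. PER and CRY proteins then return to the nucleus and repress the activators, while NR1D1 and NR1D2, the REV-ERB nuclear receptors, repress Arntl through ROR elements, on which the ROR receptors activate. DBP carries the rhythm to further genes through D-boxes. In mouse tissues, the heart included, Arntl transcripts are known to peak at about the opposite time of day from those of Nr1d1, Dbp and Per3, with Cry1 later than the other E-box genes.

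Some of these elements can be read in the DNA just before the genes' starts, and the sequences below show them for the member with the largest difference between the libraries (Cry1), for Nr1d1, and for Per1 and Per3, whose ratios lay below 1. The RefSeq table (GRCm38.p6) held 13 starts for 9 of the 10 members, all but Per2. The 250 bases before each start were searched on both strands for the E-box CACGTG, its variant (CACGTT, which reads AACGTG on the opposite strand), the D-box (TTATGTAA, which reads TTACATAA on the opposite strand) and the core of the ROR element (AGGTCA, which reads TGACCT on the opposite strand). No match in the members overlapped another. Each sequence runs 5′ to 3′ on the strand of the gene and ends at the base before the start, with the motifs in capitals. Cry1 is chr10:85185055-85185304 (minus strand), Nr1d1 is chr11:98775378-98775627 (minus strand), Per1 is chr11:69098699-69098948 (plus strand, the first of its listed starts) and Per3 is chr4:151044666-151044915 (minus strand).
Cry1: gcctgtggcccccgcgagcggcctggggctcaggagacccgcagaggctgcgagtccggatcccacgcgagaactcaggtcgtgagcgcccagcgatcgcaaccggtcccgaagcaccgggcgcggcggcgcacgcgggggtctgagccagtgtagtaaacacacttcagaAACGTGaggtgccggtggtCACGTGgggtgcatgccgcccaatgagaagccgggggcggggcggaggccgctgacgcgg
Nr1d1: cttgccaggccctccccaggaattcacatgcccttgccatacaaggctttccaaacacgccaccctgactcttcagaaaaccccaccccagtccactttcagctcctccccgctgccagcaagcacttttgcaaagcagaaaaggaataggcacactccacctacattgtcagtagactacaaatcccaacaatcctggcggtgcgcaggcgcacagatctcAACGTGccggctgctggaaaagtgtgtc
Per1: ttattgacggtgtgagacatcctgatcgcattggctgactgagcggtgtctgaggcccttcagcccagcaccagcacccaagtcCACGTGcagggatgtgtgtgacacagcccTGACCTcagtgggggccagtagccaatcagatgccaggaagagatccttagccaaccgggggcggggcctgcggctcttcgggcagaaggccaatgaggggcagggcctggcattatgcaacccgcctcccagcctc
Per3: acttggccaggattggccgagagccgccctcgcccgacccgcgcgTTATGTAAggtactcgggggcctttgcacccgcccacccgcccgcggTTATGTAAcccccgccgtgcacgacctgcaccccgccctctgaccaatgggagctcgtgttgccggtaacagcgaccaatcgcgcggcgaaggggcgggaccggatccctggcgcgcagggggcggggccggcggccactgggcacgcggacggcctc
Cry1 holds an E-box 60 bases and an E-box variant 79 bases before the start, counted to the first base of the motif. Nr1d1 holds an E-box variant 28 bases before it. Per1 holds an E-box at 166 bases and a ROR core at 137. Per3 holds the D-box at 205 and again at 158 bases. Of 32851 promoters of this length, 6.02% hold the E-box, 3.85% the variant, 0.819% the D-box and 14.0% the ROR core, and 6 hold the D-box at least 2 times. Among the other members, Cry2 holds the E-box variant, Nr1d2 and the third Clock start hold the ROR core, and the windows of Arntl and Dbp hold none of these letters. A match is a description of these windows only, since known clock elements of these genes also lie outside them.

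Of the 10 clock genes, 7 were higher with probucol, by between 1.09-fold for Nr1d2 and 2.2-fold for Cry1 in FPKM, or 5 of the 10 when the libraries were scaled to markers of heart muscle cells. Differences are given as the log2 ratio of FPKM + 0.5, probucol over untreated, where FPKM is fragments per kilobase of transcript scaled to mapped fragments. All 10 members had a mean of at least 0.5 FPKM, the limit for calling a gene measured. Of the 10 members, 2 (Cry1 and Nr1d1) were at least 1.5-fold higher with probucol, against 5.52% of 12882 measured genes, and 0 were at least 1.5-fold lower, against 12.0%. At least 2-fold, 0 were higher (1.07% of measured genes) and 0 lower (5.14%). The log2 ratios of the members ran between -0.32 for Dbp and 0.95 for Cry1. The median was 0.32, beside 0.0084 over all measured genes, of which 50.9% lay above 0.

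**Figure D1:**
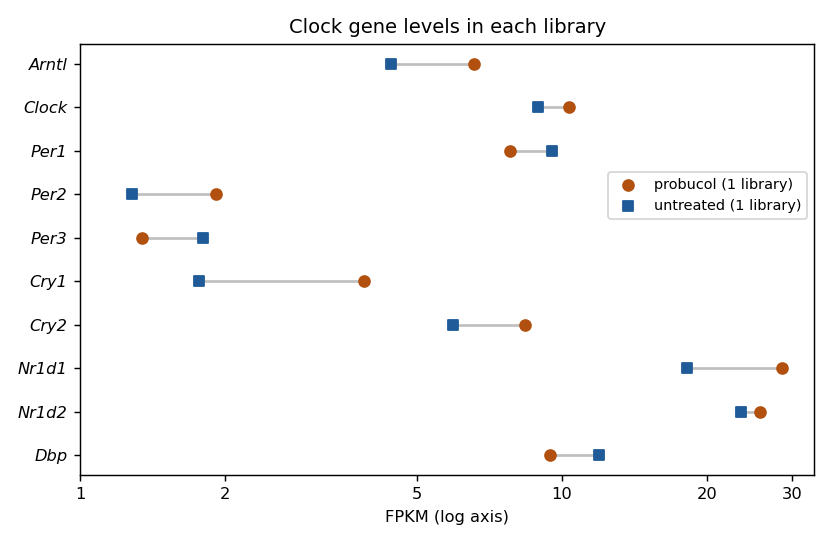
FPKM of the 10 clock genes (log axis) in the probucol library (circles) and the untreated library (squares), 1 library each, with a grey line joining the values of a gene. Cry1 has the widest gap, 3.88 against 1.76 FPKM, and Per1, Per3 and Dbp are the genes whose circle lies left of the square.

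**Figure D2:**
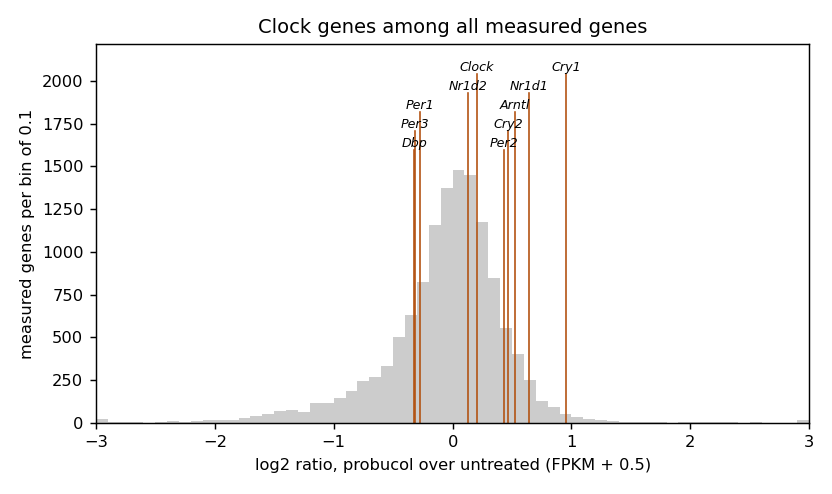
Number of measured genes (of 12882) per bin of log2 ratio, probucol over untreated on FPKM + 0.5, with genes beyond the axis counted in the end bins, and a line at the ratio of each clock gene. Cry1 at 0.95 and Nr1d1 at 0.64 lie on the upper flank, and Per1, Per3 and Dbp lie together between -0.32 and -0.27.

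Markers of several cell types differed between the libraries as well. All 13 cardiomyocyte markers were above 0, between 0.21 and 0.63 with a median of 0.45, and their summed level was 100902 FPKM with probucol and 72652.5 FPKM without. The 10 macrophage markers all passed the 1.5-fold limit on the lower side; their median was -1.56 and their sum was 956 FPKM with probucol and 3191 FPKM without. Fibroblast markers had a median of -0.85 (6 of 8 at least 1.5-fold lower) and endothelial markers a median of 0.01. Fewer cells of a type and less RNA per cell cannot be told apart in bulk tissue, and the part of these shifts in the clock values was not tested. When the libraries were instead scaled so that the cardiomyocyte markers had a median of 0, which lowered the median of all measured genes to -0.40, Clock (-0.22) and Nr1d2 (-0.31) changed sign, 0 members were 1.5-fold higher and Per1, Per3 and Dbp were 1.5-fold lower.

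The depth behind the members was modest. For a transcript with an effective length of 1 kb, 1 FPKM corresponded to 6.69 fragments with probucol and to 7.47 without, as estimated from genes with few fragments. The estimated fragments of the members ran between 52 (Per3) and 768 (Nr1d2) with probucol and between 37 (Cry1) and 783 (Nr1d2) without. Ratios of FPKM are given with exact binomial (Clopper-Pearson) 95% intervals that cover counting error only and not the spread between animals. Clock, counted by its shortest RefSeq-matched transcript, had a lower end of 1.0001, at the edge of excluding 1. The intervals excluded 1 for 7 members, Clock among them, and included it for 3, Per3, Nr1d2 and Dbp. The same share over all measured genes was not computed, so this count does not set the members apart from other genes.

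**Figure D3:**
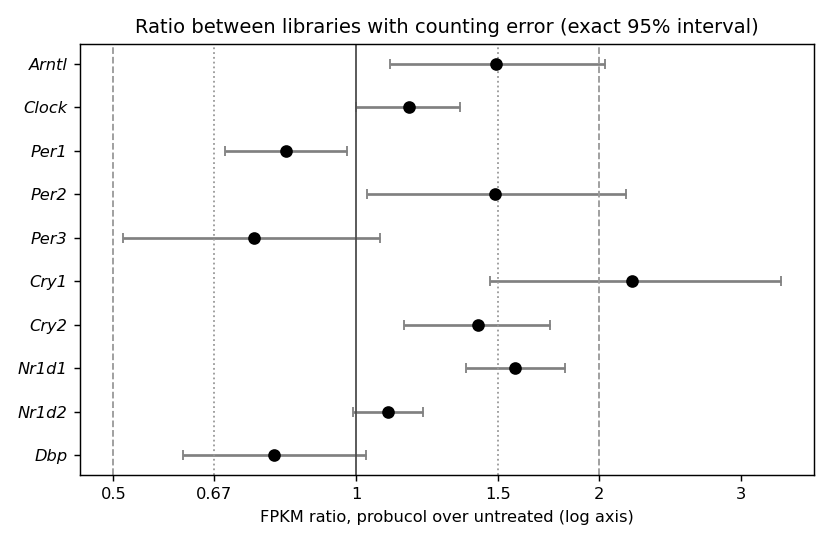
Ratio of FPKM, probucol over untreated (log axis), for each clock gene as a point, with its exact 95% counting interval as a bar, a solid line at 1, dotted lines at 1.5-fold and dashed lines at 2-fold in either direction. The interval of Cry1 reaches from 1.46 to 3.37 and those of Per3, Nr1d2 and Dbp cross 1.

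Of the activators, Arntl differed more than Clock. Arntl (ENSMUSG00000055116.8; all positions are in GRCm38/mm10, here chromosome 7, 113207465 to 113314126) had 6.58 FPKM with probucol and 4.41 FPKM without. Its FPKM ratio was 1.49 (interval 1.10 to 2.03) and its log2 ratio 0.53, just under the 1.5-fold limit. Clock (ENSMUSG00000029238.11, chromosome 5, 76209868 to 76304792), which encodes the partner of BMAL1, had 10.4 FPKM with probucol and 8.92 FPKM without. The ratio of 1.16 had an interval of 1.0001 to 1.35 by its shortest RefSeq-matched transcript, with its lower end at no difference. That transcript gives about 367 and 353 fragments. The longest one gives about 661 and 635, for which no interval was computed, so the edge position depends on the transcript chosen. Npas2, which encodes a partner of BMAL1 that can replace CLOCK, had 1.92 FPKM with probucol and 1.52 FPKM without, and its interval of 0.832 to 1.92 included 1. No difference of Npas2 was therefore detectable at this depth.

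The Period genes, whose proteins repress the activators, went in both directions. Per1 (ENSMUSG00000020893.17, chromosome 11, 69095217 to 69109960) had 7.80 FPKM with probucol and 9.52 FPKM without, a ratio of 0.820 (0.688 to 0.973). Per3 (ENSMUSG00000028957.12, chromosome 4, 151003652 to 151044665) had 1.34 FPKM with probucol and 1.80 FPKM without, a ratio of 0.746 (0.514 to 1.07). Per2 lay on the other side of 0. Per2 (ENSMUSG00000055866.9, chromosome 1, 91415982 to 91459324) had 1.91 FPKM with probucol and 1.28 FPKM without, a ratio of 1.49 (1.03 to 2.16) that rests on 72 and 54 estimated fragments.

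Cry1, whose product is the stronger late repressor of the loop, had the largest difference of the 10 members. Cry1 (ENSMUSG00000020038.10, chromosome 10, 85131700 to 85185064) had 3.88 FPKM with probucol and 1.76 FPKM without, from about 73 and 37 fragments. The FPKM ratio was 2.2 (1.46 to 3.37) and the log2 ratio 0.95, below which lay 98.8% of all measured genes. Cry2 (ENSMUSG00000068742.11, chromosome 2, 92403646 to 92434043), its close relative, had 8.39 FPKM with probucol and 5.93 FPKM without, a ratio of 1.41 (1.15 to 1.74). Both Cryptochromes were thus higher in the probucol library, although Cry2 had a log2 ratio of only 0.046 when scaled to the cardiomyocyte markers. Per1 and Per3 had ratios below 1, that of Per3 within counting error. Cry2 shares 295 exon bases with the noncoding D930015M05Rik on the opposite strand, listed at 1.06 FPKM with probucol and 0.545 FPKM without.

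Of the REV-ERB receptors, Nr1d1 was higher in the probucol library and Nr1d2 differed little. Nr1d1 (ENSMUSG00000020889.11, chromosome 11, 98767932 to 98775333) had 28.6 FPKM with probucol and 18.2 FPKM without. Its ratio of 1.58 (1.37 to 1.81) rests on about 481 and 341 fragments and gave a log2 ratio of 0.64. Nr1d2 (ENSMUSG00000021775.11, chromosome 14, 18204054 to 18239127) had 25.8 FPKM with probucol and 23.6 FPKM without, a ratio of 1.09 (0.990 to 1.21). Nr1d1 shares 263 exon bases with Thra, the gene of a thyroid hormone receptor on the opposite strand, which had 38.1 FPKM with probucol and 28.8 FPKM without, a log2 ratio of 0.40. The library kit keeps the strand, per the labels' protocols, but no source used here says whether strand was used in counting, so the values of these overlapping genes are uncertain to that extent.

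Dbp, the gene of the output factor on D-boxes, was slightly lower with probucol. Dbp (ENSMUSG00000059824.12, chromosome 7, 45705088 to 45710203) had 9.45 FPKM with probucol and 11.9 FPKM without, a ratio of 0.792 (0.610 to 1.03). The interval included 1. It shares 539 exon bases with Sphk2, a sphingosine kinase gene on the opposite strand, which had 9.25 FPKM with probucol and 9.19 FPKM without.

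The order of levels was compared per length of transcript. In the probucol library it ran Nr1d1, Nr1d2, Clock, Dbp, Cry2, Per1, Arntl, Cry1, Per2 and Per3. In the untreated library it ran Nr1d2, Nr1d1, Dbp, Per1, Clock, Cry2, Arntl, Per3, Cry1 and Per2. The 2 REV-ERB genes led in both, and Arntl was in place 7 in both. With 1 library each, neighbours in these orders have no spread by which they could be separated.

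Ratios within a library do not depend on how the libraries were scaled to each other, and some members kept pace with Arntl while others did not. Dbp had 1.44 times the FPKM of Arntl in the probucol library and 2.70 times in the untreated library. Per1 had 1.19 times the FPKM of Arntl with probucol and 2.16 times without, and Per3 had 0.204 times with probucol and 0.407 times without. Relative to Arntl, these 3 genes were thus lower with probucol, with folds of 0.531 for Dbp (approximate 95% interval from counting variance 0.360 to 0.783), 0.550 for Per1 (0.391 to 0.773) and 0.50 for Per3 (0.316 to 0.792). Nr1d1, which is switched on by the same activators, had 4.35 times the FPKM of Arntl with probucol and 4.12 times without, a fold of 1.06 (0.762 to 1.46). Per2 (0.997) and Cry2 (0.948) also stayed near 1. Clock had a fold of 0.780 and Nr1d2 one of 0.734, with intervals that included 1, and Cry1 had 1.48 (0.901 to 2.42). Arntl was the shared denominator and has about 103 and 77 fragments, so these folds are not independent of each other. With Clock as the denominator the folds of Dbp (0.681), Per1 (0.705) and Per3 (0.642) were on the same side of 1, and Cry1 had 1.89. Of the genes near 1 relative to Arntl, Nr1d1 had 1.35 relative to Clock (1.11 to 1.66), while Per2 (1.28) and Cry2 (1.22) had intervals that included 1.

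**Figure D4:**
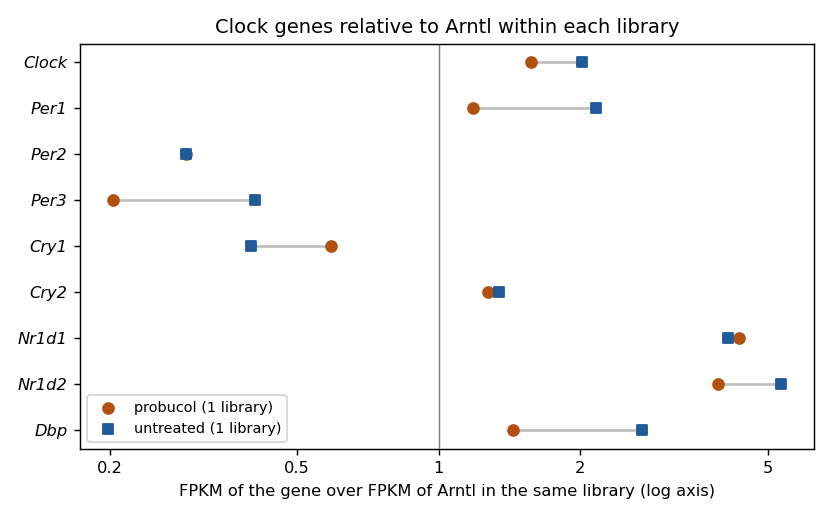
FPKM of each of the other 9 clock genes divided by the FPKM of Arntl in the same library (log axis), in the probucol library (circles) and the untreated library (squares), 1 library each. The circles of Per1, Per3 and Dbp lie well left of their squares, while those of Per2, Cry2 and Nr1d1 lie close to them.

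Other genes of the loop were close to 0 as well, and scaling to the cardiomyocyte markers turned the medians of the lists of loop, modifier and cofactor genes that follow to between -0.36 and -0.091. Of 4 measured further activators and ROR receptors, all lay above 0 with a median of 0.22 and 0 passed 1.5-fold. Rora, the gene of a ROR receptor, had 5.0 FPKM with probucol and 4.91 FPKM without. Arntl2, a relative of Arntl, had 0.958 FPKM with probucol and 0.786 FPKM without, and Rorb was under the limit. The 6 further factors of E-boxes and D-boxes divided evenly, 3 above and 3 below 0, with a median of 0.05 and 0 past 1.5-fold.

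Among those 6 factors, the relatives of Dbp did not share its direction. Tef had 26.2 FPKM with probucol and 22.1 FPKM without (log2 ratio 0.25), and Hlf had 2.85 FPKM with probucol and 1.94 FPKM without (0.46). Nfil3, which encodes a repressor on the D-box, had 11.5 FPKM with probucol and 7.73 FPKM without (0.54). Repressors on E-boxes had log2 ratios below 0, within counting error for all but Bhlhe40. Bhlhe40 (also called DEC1), a factor also made under hypoxia and in immune cells, had 24.1 FPKM with probucol and 36.0 FPKM without (-0.57), with an interval of its ratio of 0.597 to 0.753. Its relative Bhlhe41 had -0.15, with an interval of 0.381 to 1.87 from about 13 and 17 fragments by its shortest RefSeq-matched transcript. Ciart, which encodes a repressor of the activators, had 1.38 FPKM with probucol and 1.69 FPKM without (-0.22), with an interval of 0.340 to 1.91.

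The protein-modifying and cofactor genes of the clock varied less than the loop genes. Clock kinases and phosphatases had a median of 0.18, with 8 of 11 above 0 and 0 past 1.5-fold, and the largest differences were Prkaa2 (0.39) and Prkaa1 (-0.26), catalytic subunits of AMP-activated kinase. The casein kinase genes Csnk1d (-0.09) and Csnk1e (0.09), whose products mark PER proteins for decay, were close to 0. Ubiquitin ligases and the protease Usp2 had a median of 0.14 with 7 of 8 above 0, led by Fbxw7 (0.42) and Usp2 (0.35), itself a rhythmic gene. Cofactors had a median of 0.11, with 8 of 14 above 0 and 0 past 1.5-fold, and Wdr5 (0.39) and Tipin (-0.36) lay furthest out.

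Genes known to be rhythmic in heart and other tissues varied widely and in both directions. Of 20 measured, 5 passed the 1.5-fold limit as higher and 3 as lower, beside 5.52% and 12.0% of all measured genes. The lower side is thus near the share of all genes. The median was 0.29, or -0.16 scaled to the cardiomyocyte markers. Kcnip2, which encodes a subunit of the cardiac transient outward potassium channel, had 89.3 FPKM with probucol and 38.0 FPKM without (log2 ratio 1.22). Klf15, a transcription factor known to control Kcnip2 in mouse heart, had 41.5 FPKM with probucol and 18.0 FPKM without (1.18), a ratio of 2.30 (1.998 to 2.66). On the scale of FPKM + 0.5 both log2 ratios were above those of the 10 clock members. In FPKM the ratios of Kcnip2 (2.35) and Klf15 were close to that of Cry1 (2.2). The counting interval of Cry1, 1.46 to 3.37, contains both, so these genes cannot be ranked against it. Angptl4, an inhibitor of lipoprotein lipase, lay at the other end with 5.90 FPKM with probucol and 12.1 FPKM without (-0.97). Lonrf3 (-0.87) rests on about 9 and 28 fragments.

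**Figure D5:**
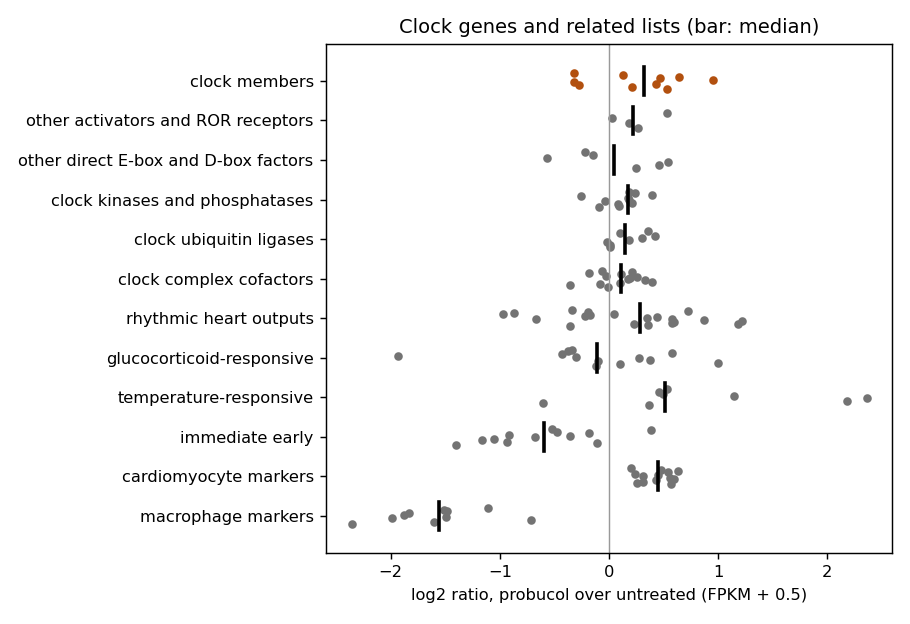
Log2 ratios (FPKM + 0.5, probucol over untreated) of the measured genes of each list as points, with the list's median as a vertical bar. The 10 clock members span -0.32 to 0.95, a narrower range than the rhythmic heart outputs, while immediate early genes and macrophage markers lie mostly left of 0.

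Per1 is also switched on by signals from outside the loop, and genes that answer to those signals were read alongside it. Of all measured genes, 5.52% were at least 1.5-fold higher and 12.0% lower. Glucocorticoid-responsive genes had a median of -0.11, with 1 of 12 at least 1.5-fold higher and 1 lower. These were Zbtb16, a transcription factor gene with 13.3 FPKM with probucol and 6.39 FPKM without (2.08 times as much), and the metallothionein gene Mt2 with 86.7 FPKM with probucol and 332 FPKM without (-1.93). Fkbp5 (-0.11) and Tsc22d3 (0.10), widely used readouts of the glucocorticoid receptor, were close to 0. Of 12 measured immediate early genes, which respond within minutes to stimuli, 6 were at least 1.5-fold lower and 0 higher, and the median was -0.60. Klf4 was the 1 gene above 0 (0.39), and Jun (-0.11), Dusp1 (-0.18) and Ier2 (-0.36) had counting intervals that included no difference. Fos had 2.06 FPKM with probucol and 6.25 FPKM without (-1.40), and Egr1 had 2.92 FPKM with probucol and 7.15 FPKM without (-1.16). Per1, at -0.27, lay on the same side with a smaller difference.

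Temperature is a further input to clocks in mouse tissues, and its responsive genes had a median of 0.51. Of these 8 genes, 3 were at least 1.5-fold higher and 1 lower, beside 5.52% and 12.0% of all measured genes. Hsph1, a chaperone gene, had 52.7 FPKM with probucol and 23.6 FPKM without (1.14), and Hspa1a (2.18) and Hspa1b (2.36), whose near-identical sequences make the share of each uncertain, were higher still. The cold-inducible genes Cirbp (0.37) and Rbm3 (-0.60) had opposite signs. Whether the values of the clock genes followed any of these inputs was not tested.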

How the data were processed

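RNA of 1 probucol-treated and 1 untreated mouse heart sample was sequenced, and groups were taken from the treatment label. The authors deposited FPKM values for 24346 symbols, per the file headers. Per the submitters' processing notes, the tools were Bowtie2, TopHat2 2.1.1 and Cuffdiff 2.2.1, with the build mm10. No source used here gives their roles, the annotation or how libraries were scaled.

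FPKM were used without rescaling, with a pseudocount of 0.5 and a mean of at least 0.5 FPKM for a measured gene. No test, p-value or SD is possible with 1 library per group. What 1 fragment is worth was found from whole multiples among low genes with 1 RefSeq-matched GENCODE vM21 transcript, with 210 bases subtracted from its length. Of such genes under 6 fragments, 75.9% (probucol) and 75.6% (untreated) then lay within 0.1 of a whole number. Fragments of members and of all other genes use the shortest RefSeq-matched transcript and are approximate for genes with several. The recovery was also run on fragments simulated for genes with 1 transcript, at the depth and offset found. Since these are the settings searched for, that run checks the procedure and not the fragments of real genes. Python 3.11.15, numpy 2.4.6, pandas 2.3.3, scipy 1.17.1 and matplotlib 3.10.9 were used.

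The 10 members, the lists around them and the cell-type markers were chosen with earlier results of these data known. All members were named, and of each other clock or input list up to 4 genes with the largest ratios. Npas2, Tef, Hlf, Nfil3, Bhlhe40, Bhlhe41, Ciart and Rora were named whatever their values. Csnk1d, Csnk1e, Fkbp5, Tsc22d3 and Cirbp were added for their known roles after their values were seen. Klf4, Jun, Dusp1 and Ier2 were added as exceptions, also after their values were seen. A few of the genes so chosen are not reported here. Genes of similar pattern were not sought, since 2 libraries give 1 ratio per gene. Alternatives were other pseudocounts, filters, scalings and denominators.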

Additional observations from a re-analysis of the deposited data

How the results depend on the processing

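Of the 197 values recomputed under alternatives, 19 moved beyond counting error or, for counts, beyond 1.5 times. For a list median the limit was the median counting error of its single genes. Of the 19, 14 were single genes and list medians under scaling to the cardiomyocyte markers. A scaling shifts all genes nearly alike, so a gene with few fragments, such as Cry1, can stay within the limit because its interval is wide. No value past the 1.5-fold limit changed sign. The scalings and the change of denominator shifted log2 values by less than that limit, so they could not have reversed one. Scaling to the cardiomyocyte markers moved the count of members at least 1.5-fold higher to 0, the count at least 1.5-fold lower to 3 and the members' median log2 ratio to -0.087. Scaling to equal total FPKM, which moved the median of all measured genes to -0.12, left 1 member 1.5-fold higher, Cry1, and gave Nr1d2 and the medians of cofactors (-0.031) and of further E-box and D-box factors (-0.087) a negative sign. With a pseudocount of 0.1, 1 member was at least 2-fold higher, again Cry1. A pseudocount of 1, scaling to the median of all measured genes, a trimmed mean of M values, no filter and a filter of 1 FPKM kept the count of members 1.5-fold higher at 2. No paired analysis was possible because each group has 1 library. Depth limits Per3, Dbp and Npas2, whose counting intervals include no difference. It limits Arntl2 and Ciart more, with at most 15 fragments in a library. Bhlhe41 was counted at about 13 and 17 fragments by its shortest RefSeq-matched transcript, at 3.69 FPKM with probucol and 4.15 FPKM without. Hlf was counted at about 103 and 79 fragments at lower levels, 2.85 and 1.94 FPKM. The count and interval of Bhlhe41 thus depend on the transcript length taken, and longer ones were not tried. The interval of Nr1d2 also includes no difference, but that gene has the most fragments of the members (768 and 783) and a ratio of 1.09.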

Other observations

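Markers of further cell types of the tissue, not part of the clock, are given as values. Of all measured genes, 5.52% were at least 1.5-fold higher and 12.0% lower. At least 2-fold, 1.07% were higher and 5.14% lower. All 6 proliferation markers were at least 2-fold lower with probucol, with a median of -1.62. Cdk1, the kinase that starts mitosis, had 1.07 FPKM with probucol and 4.34 FPKM without. The 4 measured red cell markers all passed the 1.5-fold limit on the higher side; their median was 0.99 and their sum was 3346 FPKM with probucol and 1720 FPKM without. Platelet markers went both ways, with a median of 0.97, and 3 of 6 were at least 1.5-fold higher and 1 lower. The higher ones were Gp9 (3.16, from about 36 and 2 fragments), Itga2b (2.07) and Ppbp (2.07). The lower one was Pf4 (53.9 FPKM with probucol and 111 FPKM without). Neutrophil markers had a median of -0.79, with 2 of 7 at least 1.5-fold higher and 4 lower. Among these, Camp (about 0 fragments with probucol and 8 without), Mmp8 (6 and 21) and Retnlg (11 and 6) rest on few fragments. The sum of the neutrophil markers went the other way, 145 FPKM with probucol and 105 FPKM without, led by S100a8 (0.49) and S100a9 (0.61). Of the T cell markers 3 were measured, with a median of -0.02. Adipocyte markers (2 measured) and skeletal muscle markers (2 measured) were near detection, with sums of at most 5.07 FPKM in either library. The part of these cells in the clock values was not tested.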
